A study of Mus musculus with 8 samples.

Results

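The natriuretic peptide system was followed through 6 genes of 32285 listed in the files. These were the peptide genes Nppa and Nppb, the protease gene Corin and the receptor genes Npr1, Npr2 and Npr3. The members were taken by symbol, and all 6 were found. The hearts came from wild type male C57BL/6J mice that had either sham surgery or transverse aortic constriction (TAC). TAC is a suture around the aortic arch that makes the heart pump against a raised load. The stated age was 8 weeks for every group, and the age at which hearts were taken was not stated. The 4 conditions were sham and 2, 4 or 6 weeks after TAC (TAC-2w, TAC-4w, TAC-6w), with 1 spatial section and 1 library of dissociated cells for each. Values without a named condition are given in this order. Sham animals had the same operation without tying the suture, and the sham samples carry no time after surgery.

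Atrial natriuretic peptide (ANP, from Nppa) and brain natriuretic peptide (BNP, from Nppb) are hormones of the heart muscle cell that lower blood pressure and blood volume. Corin is a membrane serine protease that cuts the ANP precursor. Npr1 encodes the receptor that answers ANP and BNP by making cyclic GMP, Npr2 encodes the like receptor for C-type natriuretic peptide, and Npr3 encodes the clearance receptor, which takes up the peptides and lacks the cyclase. In the ventricle, the peptide genes are known as markers of load.

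The sections held 1676, 2063, 1228 and 2193 spots, with between 25996378 and 48754396 UMIs. A spot is a small region that can hold several cells. The level used throughout is the summed UMI count of a gene per 1000000 UMIs (CPM), and intervals in brackets are 95% intervals that cover counting error only. With a single section and a single library per condition, no test between conditions was possible and no p-value is given. By the labels, the sham and TAC-2w sections shared a batch, whereas TAC-4w and TAC-6w each had a batch of their own, so batch and time cannot be told apart for those sections. Before the results, a conflict must be stated. By outline and by the pattern of UMIs, the study's pictures of the sections carry other titles than the deposited files. The picture titled sham has the outline of the section labelled TAC-2w, that titled TAC-2w the outline of TAC-4w, that titled TAC-4w the outline of TAC-6w, and that titled TAC-6w the outline of sham. The deposited labels are used here, each section is meant as the section labelled so, and ratios to the section labelled TAC-2w are given in addition to those to sham.

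The peptide genes are neighbours on chromosome 4 (GRCm38.p6), with Nppb at chr4:147985786-147987205 and Nppa at chr4:148000722-148002074, 13516 bases apart. The 250 bases before each transcript start in the RefSeq promoter table are shown because both genes were higher in the same sections. For Nppb, the promoter table uses a start downstream of the gene start given above, so its window reaches into the annotated gene. Every match marked for Nppb lies in that part, and none lies before the annotated gene. Capitals mark matches, on either strand, to GATAA (the GATA factor motif), CATTCC (the TEAD motif), TATAAA (the TATA box) and AAGTG (the NKX2-5 motif), and the lines below give chr4:148000472-148000721 and chr4:147985650-147985899, both on the plus strand.
Nppa: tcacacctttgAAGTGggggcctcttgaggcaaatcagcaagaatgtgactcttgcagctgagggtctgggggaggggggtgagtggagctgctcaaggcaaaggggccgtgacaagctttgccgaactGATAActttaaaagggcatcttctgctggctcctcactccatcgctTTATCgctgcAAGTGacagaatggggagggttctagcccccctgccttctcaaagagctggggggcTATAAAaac
Nppb: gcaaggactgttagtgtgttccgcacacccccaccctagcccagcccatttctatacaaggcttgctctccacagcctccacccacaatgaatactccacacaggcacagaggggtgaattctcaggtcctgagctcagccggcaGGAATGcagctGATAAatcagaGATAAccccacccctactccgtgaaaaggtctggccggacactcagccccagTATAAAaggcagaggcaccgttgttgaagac

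Both windows held 2 matches to GATAA, a motif present in 22.6% of the 32851 promoters, and 1 match to TATAAA, present in 12.4%. CATTCC matched once in Nppb and not in Nppa, against 12.6% of all promoters, and AAGTG matched 2 times in Nppa and not in Nppb, against 40.7%. Neither window held an exact match to TGANTCA (the AP-1 motif, 6.75% of promoters) or to the CArG box (1.47%). The CArG box was searched as CCWWWWWWGG, with W for A or T, and inexact matches were not searched. In the sections, 0 of the 8 genes on a list of factors known to act on these promoters (Gata4, Nkx2-5, Mef2c, Mef2a, Srf, Tbx5, Tead1 and Hand2) differed 2-fold from sham at any time, where 0.657%, 5.28% and 4.66% of all genes tested were 2-fold higher and 0.587%, 0.776% and 0.251% were 2-fold lower in TAC-2w, TAC-4w and TAC-6w.

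Nppa was at 106 CPM (102 to 110) in the sham section, 136 CPM (132 to 139) in TAC-2w, 1920 CPM (1905 to 1935) in TAC-4w and 580 CPM (573 to 587) in TAC-6w. The sections thus ordered as sham, TAC-2w, TAC-6w and TAC-4w. Against sham, Nppa was 1.28-fold (1.22 to 1.34) in TAC-2w, 18.1-fold (17.4 to 18.8) in TAC-4w and 5.47-fold (5.26 to 5.69) in TAC-6w. Against TAC-2w, the ratios were 14.2 for TAC-4w and 4.28 for TAC-6w.

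Nppb was at 67.3 CPM (64.2 to 70.5) in sham, 37.7 CPM (36.0 to 39.4) in TAC-2w, 367 CPM (361 to 374) in TAC-4w and 171 CPM (167 to 175) in TAC-6w. Its lowest level was in TAC-2w, at 0.559-fold of sham (0.524 to 0.598), within the shared batch. TAC-4w was 5.46-fold (5.19 to 5.74) and TAC-6w 2.54-fold (2.41 to 2.68) of sham, and 9.75-fold and 4.54-fold of TAC-2w. Nppa UMIs outnumbered Nppb UMIs 1.58 to 1 in sham, 3.60 to 1 in TAC-2w, 5.23 to 1 in TAC-4w and 3.39 to 1 in TAC-6w.

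Corin was at 59.0 CPM (56.1 to 62.1) in sham, 64.3 CPM (62.1 to 66.6) in TAC-2w, 98.3 CPM (94.9 to 102) in TAC-4w and 40.6 CPM (38.8 to 42.4) in TAC-6w. The protease gene was therefore highest in the section with the most Nppa and lowest in TAC-6w, at 0.687-fold (0.642 to 0.735) of sham. In TAC-2w it was 1.09-fold of sham, and 0.932-fold over a total without mitochondrial UMIs and without Gm42418, Gm26917 and AY036118 (features like ribosomal RNA), so its direction there depended on the total. Against TAC-2w, Corin was 1.53-fold in TAC-4w and 0.631-fold in TAC-6w.

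The receptor genes were low in every section. Npr1 was at 10.2, 7.06, 8.92 and 12.1 CPM, from 266 to 584 UMIs. Npr2 was at 16.5, 16.7, 18.7 and 19.5 CPM, and Npr3 at 3.81, 5.48, 5.45 and 4.56 CPM, from 99 to 267 UMIs. Their ratios to sham lay between 0.690 (Npr1, TAC-2w, 0.586 to 0.812) and 1.44 (Npr3, TAC-2w, 1.14 to 1.83). For Npr2 in TAC-4w the ratio of 1.14 became 0.952 over that smaller total. Npr1 in TAC-6w was 1.18-fold of sham (1.02 to 1.37), and 1.03-fold (0.885 to 1.19) over the smaller total. Against TAC-2w, the receptors' ratios lay between 0.832 (Npr3, TAC-6w) and 1.71 (Npr1, TAC-6w). In bulk counts over a section, fewer cells of a type and less RNA per cell cannot be told apart.

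Genes were compared where one of the sections had 50 UMIs or more. At a threshold of 2-fold, 0 of 6 members were higher in TAC-2w (0.657% of all genes tested), and 2 of 6, Nppa and Nppb, were higher in TAC-4w (5.28%) and in TAC-6w (4.66%). None was 2-fold lower in TAC-2w (0.587% of all genes), TAC-4w (0.776%) or TAC-6w (0.251%). The absence of a lower call in TAC-2w depended on the total, since Nppb was 0.479-fold of sham over the smaller total. The members' median ratio was 1.05, 1.55 and 1.19, beside 1.03, 1.16 and 1.24 over all genes tested. The 3 comparisons share the sham section. Against the section labelled TAC-2w, Nppa and Nppb were again the 2 members higher in TAC-4w (5.98% of genes) and TAC-6w (8.08%), and none was lower (1.13% and 0.664%).

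**Figure D1:**
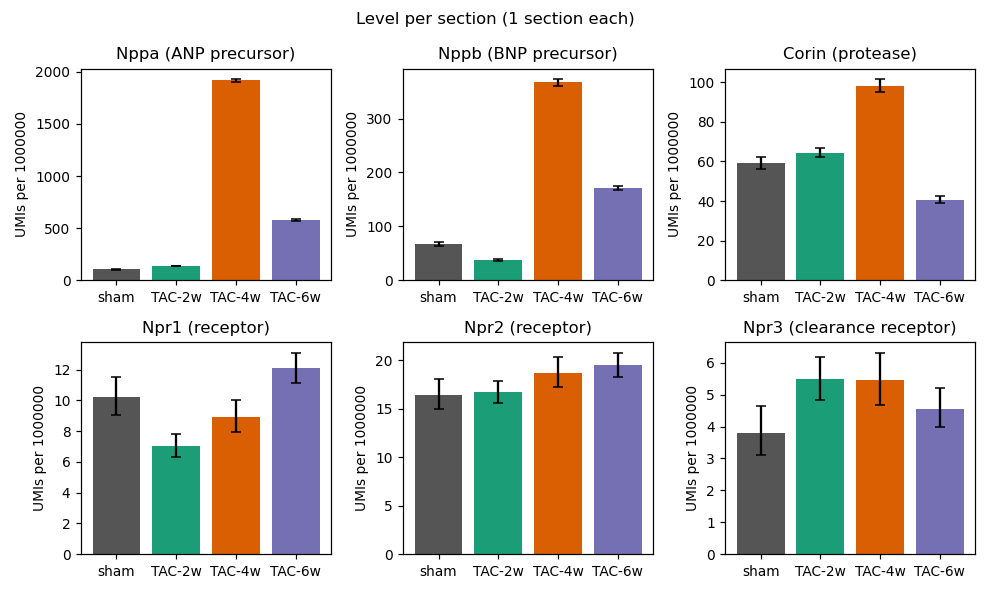
Level of each member in CPM (UMIs per 1000000) in the 4 sections, with bars for the level and whiskers for the 95% Poisson interval. Nppa and Nppb were highest in TAC-4w, at 1920 and 367 CPM, while the receptors stayed under 20 CPM in every section.

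Of 18 other genes of the pathway, 15 had enough UMIs to be compared. None differed 2-fold from sham in TAC-2w or TAC-6w. Of all genes tested, 0.657% and 4.66% were 2-fold higher there, and 0.587% and 0.251% were 2-fold lower. In TAC-4w 2 of the 15 were higher, beside 5.28% of all genes tested. These were Ide (insulin-degrading enzyme, which also cuts natriuretic peptides) at 2.50-fold (2.30 to 2.71) and Prkg1 (the cyclic GMP-dependent kinase) at 2.19-fold (1.72 to 2.81). Prkg1 was under 2-fold over the smaller total, at 1.83, and against TAC-2w, at 1.71. Against TAC-2w, Ide was 2.51-fold in TAC-4w, and Pde9a, a phosphodiesterase of cyclic GMP, was 2.30-fold in TAC-6w. Nppc, the gene of C-type natriuretic peptide, had a single UMI in each section. Of 4 stress genes of the ventricle, 3 were higher in both TAC-4w and TAC-6w, beside 5.28% and 4.66% of all genes tested. This list was chosen with earlier results of these data known. Ankrd1 was 5.36-fold and 5.21-fold, Acta1 (skeletal muscle actin) 11.7-fold and 30.7-fold, and Myh7 (beta myosin heavy chain) 174-fold and 2.32-fold of sham. The same 3 were over 2-fold higher against TAC-2w at both times, from 4.15-fold (Myh7, TAC-6w) to 313-fold (Myh7, TAC-4w). Against TAC-2w, 5.98% of all genes tested were 2-fold higher in TAC-4w and 8.08% in TAC-6w.

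The sections were checked for atrial tissue, since atria hold far more Nppa than ventricles. No spot reached 1000 CPM summed over the atrial markers Myl4, Myl7, Sln, Bmp10 and Mybphl, and their summed level was between 1.54 and 2.54 CPM. The muscle gene Myh6 was at 7323, 8043, 3770 and 7093 CPM, lowest in TAC-4w, so heart muscle was present in each section.

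Nppa was spread unevenly over the spots. A UMI of Nppa was found in 41.9% of spots in sham, 55.0% in TAC-2w, 99.3% in TAC-4w and 95.5% in TAC-6w. With every spot thinned to 5000 UMIs, the shares were 25.7%, 26.1%, 87.0% and 75.4%. The 5% of spots with the most Nppa held 60.3% of its UMIs in sham, 65.0% in TAC-2w, 47.0% in TAC-4w and 42.6% in TAC-6w. For Nppb, the top 5% of spots held 29.3%, 25.8%, 15.7% and 22.2%. The median spot had 0 CPM of Nppa in sham, 35.3 in TAC-2w, 669 in TAC-4w and 356 in TAC-6w.

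Neighbouring spots had like Nppa levels. Moran's I, which is near 0 for values scattered at random over the array and near 1 for smooth patches, was 0.430, 0.590, 0.796 and 0.581 for Nppa. It was 0.118, 0.192, 0.332 and 0.178 for Nppb. Npr1 and Npr2 were between -0.033 and 0.022, and Npr3 reached 0.151 in TAC-2w. The receptors were sparse, with 266 to 584 UMIs of Npr1 per section, and Moran's I was not corrected for counts. Values near 0 therefore do not show that a receptor gene lacked a pattern, and genes of unlike counts are not strictly comparable.

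**Figure D2:**
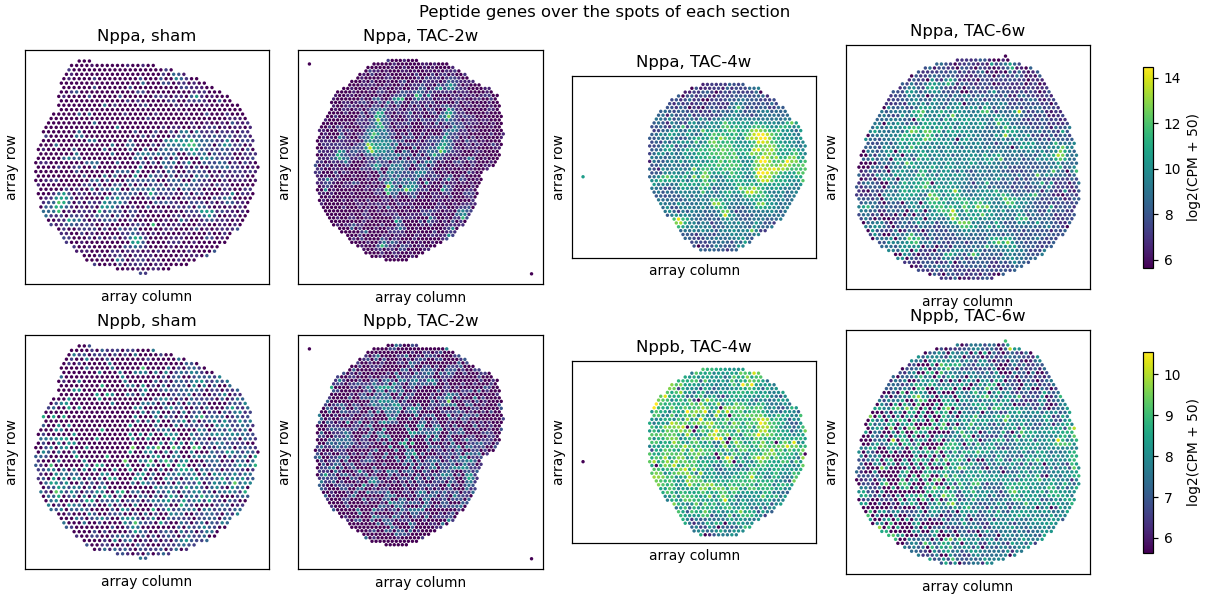
Nppa (top) and Nppb (bottom) over the spots of each section by array row and column, coloured by log2(CPM + 50) on 1 scale per gene, with the few brightest spots sharing the top colour. Nppa formed patches in every section, brightest in TAC-4w, whereas Nppb was more even.

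Nppa was lowest at the outer edge of every section. In sham it was 32.4 CPM within 2 spot steps of the edge and 194 CPM at 10 steps or more. The same bands held 38.2 and 325 CPM in TAC-2w, 671 and 3044 CPM in TAC-4w, and 248 and 1028 CPM in TAC-6w. In TAC-4w the band of 6 to 9 steps was higher still, at 3702 CPM. Nppb differed less, with 54.2 and 74.8 CPM in sham, 25.9 and 45.7 in TAC-2w, 303 and 397 in TAC-4w, and 153 and 205 in TAC-6w. Corin was about level, with 56.7 and 59.4 CPM in sham and 99.6 and 103 CPM in TAC-4w. Npr3 was highest in the inner band in sham, at 10.4 CPM (7.55 to 13.9), and in TAC-2w, at 11 CPM (9.36 to 12.9), against 2.53 and 3.75 CPM at the edge. In TAC-4w and TAC-6w the inner and outer intervals of Npr3 overlapped. Median depth differed between the bands, for example 22824 UMIs per spot at the edge and 7004 in the inner band of sham, and its part in these levels was not tested.

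**Figure D3:**
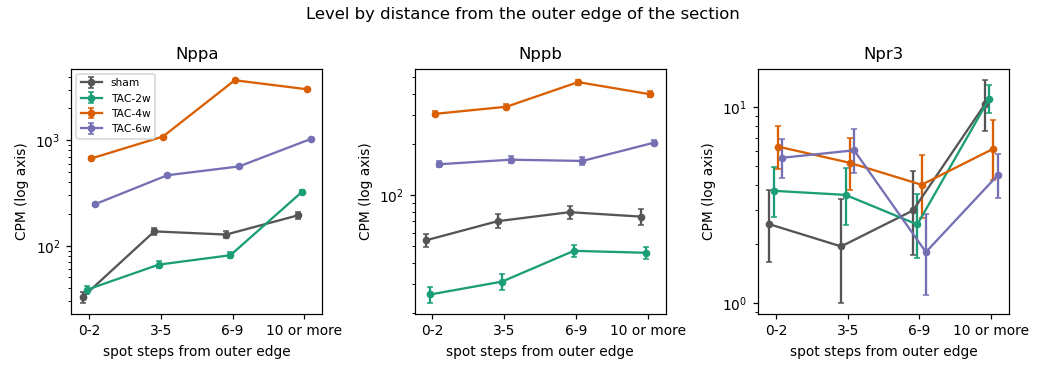
Level of Nppa, Nppb and Npr3 (CPM, log axis) by steps from the outer edge in each section, with 95% Poisson intervals. Nppa was lowest within 2 steps of the edge in all 4 sections, and Npr3 was highest at 10 steps or more in sham and TAC-2w.

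Spots with the most Nppa held more Nppb than those with the least. When the spots of a section with at least 5000 UMIs were ordered by Nppa and divided into 5 equal groups, Nppb went from 56.7 CPM in the lowest group to 101 in the highest in sham, from 30.0 to 60.0 in TAC-2w, from 303 to 510 in TAC-4w and from 114 to 263 in TAC-6w. The 2 lowest groups of sham and TAC-2w held no Nppa UMI, so their order was arbitrary. Over single spots the Spearman correlation of log-normalized values was weak, at 0.180 (n = 1676 spots), 0.138 (n = 2063), 0.292 (n = 1228) and 0.237 (n = 2193). The spots share a library and their neighbours, and counts per spot were sparse. With spots thinned to 5000 UMIs it was 0.108, 0.110, 0.159 and 0.191. Summed over each spot and its neighbours, whose sums overlap, it was 0.420, 0.385, 0.404 and 0.507.

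**Figure D4:**
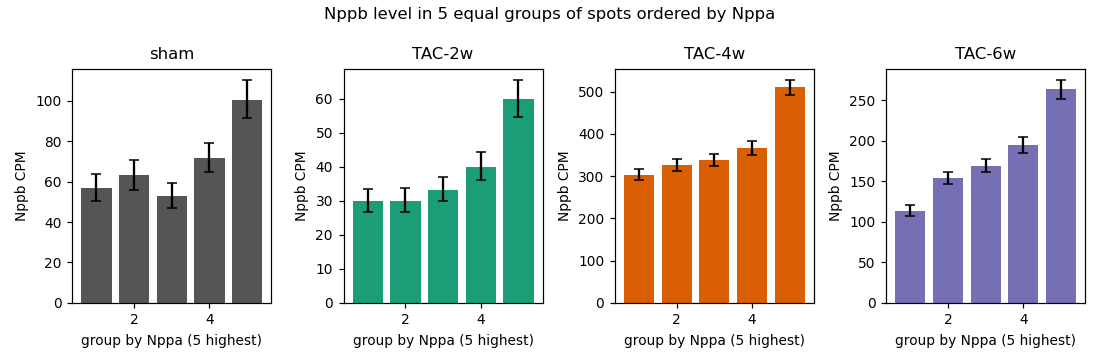
Nppb level (CPM) in 5 equal groups of the spots of each section ordered by Nppa, with 95% Poisson intervals. The highest group held the most Nppb in all 4 sections, such as 510 CPM in TAC-4w.

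The clearance receptor was highest among the spots rich in Nppa in the 2 sections with the least Nppa. Npr3 was at 9.51 CPM in the group of sham spots with the most Nppa against 3.07 in the lowest group, and at 16.1 against 3.06 CPM in TAC-2w. In TAC-4w these were 6.97 and 6.34 CPM, and in TAC-6w 6.14 and 4.55 CPM. Corin was between 36.3 and 46.0 CPM across the 5 groups of TAC-6w and between 93.0 and 104 CPM in TAC-4w.

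Among 6622 genes compared over spots, those most like Nppa by their lowest Spearman correlation in the 4 sections were Clu (0.180), Myh7 (0.144), Nppb (0.138), Actb (0.135) and Bgn (0.122). For Nppb they were Acta1 (0.190), Ankrd1 (0.172), Nppa (0.138), Ptgds (0.136) and Clu (0.125). All of these were weak.

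The libraries gave the cell types. After filters, 7965, 6293, 6531 and 5399 cells were kept, and 8 to 19 barcodes were shared by any pair of libraries. By the labels, the TAC-6w and sham libraries shared a batch, whereas TAC-2w and TAC-4w each had a batch of their own. Batch and time therefore cannot be told apart in ratios of the TAC-2w and TAC-4w libraries to sham. Clusters were named from marker genes, and members of the system were left out of the genes used for clustering. B cell-like cells, which should lack these genes, gave the background.

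Nppa UMIs were found in cell types that should lack the gene. B cell-like cells held 113 and 240 CPM of Nppa in sham and TAC-2w, and 1.99 and 5.76 CPM in TAC-4w and TAC-6w. Only 106, 74, 23 and 11 cells were cardiomyocyte-like, led by the atrial genes Sln and Myl7 as well as by Myl2. In sham, the 52 of these cells with more atrial UMIs (Myl4, Myl7 and Sln) than Myl2 held 28347 CPM of Nppa, against 818 CPM in the 53 with more Myl2, the ventricular light chain. In TAC-2w the values were 25198 CPM in 43 cells and 1476 CPM in 31 cells. Nppb had the same order in sham, with 154 CPM (103 to 221) in the former cells and 54.2 CPM (27.1 to 97.0) in the latter. In TAC-2w it was at 101 CPM (63.6 to 154) and 190 CPM (120 to 285), with intervals that overlapped. Of the TAC-4w cells 22 had more Myl2, with 46.6 CPM of Nppa (5 UMIs in 3 cells) and 326 CPM of Nppb. All 11 TAC-6w cells had more Myl2, with 5441 CPM of Nppa from 3 cells. Nppa in the TAC-4w cells with more Myl2 was thus below that in the like cells of sham, whereas the TAC-4w section was above the sham section. The sham value came from 166 UMIs in 14 of the 53 cells. The Nppa of B cell-like cells, 113 CPM in sham and 1.99 CPM in TAC-4w, was not subtracted, and these libraries had different batch labels.

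Corin was highest in smooth muscle cell-like cells, at 42.7 CPM in sham and 100 CPM in TAC-2w, the 2 libraries with at least 20 such cells, and TAC-2w was 2.35-fold of sham (1.67 to 3.35). Cardiomyocyte-like cells held 7.65, 14.8 and 17.4 CPM in sham, TAC-2w and TAC-4w, from 2 to 5 UMIs. These cells were few and shallow, with a median of 2049.5 UMIs in sham. They held 1158 CPM of Myh6 in sham, against 7323 CPM in the sham section. That section as a whole held 59.0 CPM of Corin, more than the smooth muscle cell-like cells of sham. The totals behind these levels were unlike. Mitochondrial UMIs made up 51.5% of the sham section, against a median of 4.40% in the kept cells of the sham library. Which cell type held the Corin of the sections was not tested. B cell-like cells held no Corin UMI in any library.

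Npr1 was highest, among named types, in endothelial cell-like cells in all 4 libraries, at 61.7, 51.3, 90.1 and 88.7 CPM. Fibroblast-like cells followed at 27.4, 22.3, 24.1 and 19.1 CPM. Cardiomyocyte-like cells held no Npr1 UMI, with upper limits of 9.41, 10.9, 32.2 and 117 CPM. In TAC-4w and TAC-6w those limits lay above the fibroblast-like levels, so the absence of UMIs there says little. An unnamed cluster led by Wif1 and Chad held 83.0, 94.1, 79.3 and 118 CPM, above endothelial cell-like cells in 3 of the 4 libraries. Within endothelial cell-like cells, Npr1 in TAC-6w was 1.44-fold of sham (1.09 to 1.88), within the labelled batch, while the class changed in make-up, since the cluster led by H19, Npr3 and Plvap was 31.2% of it in sham and 7.58% in TAC-6w. Named sub-types had overlapping intervals in sham and TAC-6w, with 67.8 and 69.9 CPM in capillary, 82.2 and 86.1 CPM in arterial and 47.7 and 35.7 CPM in endocardial endothelial-like cells. An unnamed endothelial sub-cluster led by Rasa4 and Col13a1 held more, at 121, 105, 126 and 170 CPM, above the Wif1-led cluster in each library. The order was clear only in TAC-4w, since the sub-cluster's intervals held the Wif1-led level in sham, TAC-2w and TAC-6w. This sub-cluster was 26 of 491 endothelial cell-like cells in sham and 33 of 198 in TAC-6w, and its intervals there overlapped too (80.9 to 174 and 114 to 245). In fibroblast-like cells Npr1 in TAC-6w was 0.696-fold of sham (0.617 to 0.784). It was 0.694-fold (0.586 to 0.821) in cluster 0, which went from 44.3% of these cells in sham to 76.5% in TAC-6w, and 1.17-fold (0.971 to 1.39) in cluster 1. Make-up inside these clusters was not held fixed, and its part was not tested.

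Npr2 was shared by fibroblast-like cells, at 21.6, 23.8, 32.4 and 25.9 CPM, and endothelial cell-like cells, at 27.3, 26.9, 19.0 and 23.4 CPM, each leading in 2 of the 4 libraries. The Wif1-led cluster held 38.8, 39.0, 30.3 and 30.8 CPM. In fibroblast-like cells Npr2 was 1.10-fold, 1.5-fold and 1.2-fold of sham in TAC-2w, TAC-4w and TAC-6w. In TAC-4w it was 0.978-fold (0.613 to 1.49) in cluster 0 and 1.55-fold (1.29 to 1.85) in cluster 1, which held 55.7% of these cells in sham and 79.3% in TAC-4w. With clustering at resolution 0.5, a fibroblast-like cluster led by Gdf10 and Tnfrsf11b had 79 sham and 210 TAC-4w cells. Make-up inside the clusters thus differed too, and its part in these ratios was not tested. Macrophage-like cells held at most 0.475 CPM.

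Npr3 was held mostly by endocardial endothelial-like cells, the lining of the heart chambers, which were told from other endothelial cells by markers other than Npr3. These held 1790 CPM in sham (180 cells), 1900 CPM in TAC-2w (112 cells) and 1151 CPM in TAC-6w (22 cells), and TAC-4w had only 4 such cells. Capillary endothelial-like cells held 11.7, 1.14, 0 and 0 CPM. A UMI of Npr3 was found in 88.3%, 93.8% and 81.8% of the endocardial cells of sham, TAC-2w and TAC-6w, and in 75.0%, 78.3% and 65.0% with cells thinned to 1000 UMIs, against at most 0.862% of B cell-like cells. Median depth in sham was 9412 UMIs per endocardial cell and 3057.5 per B cell-like cell. Within endocardial cells, TAC-2w was 1.06-fold (1.01 to 1.12) and TAC-6w 0.643-fold (0.535 to 0.766) of sham. The libraries also differed in atrial content. Cardiomyocyte-like cells with more atrial UMIs than Myl2 numbered 52 in sham, 43 in TAC-2w and 1 in TAC-4w. In TAC-6w all 11 had more Myl2. The part of atrial content in ratios between libraries, for this or any other gene, was not tested.

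In all endothelial cell-like cells together, Npr3 was at 1069, 803, 6.93 and 151 CPM, and this order moved with the cluster led by H19, Npr3 and Plvap, which made up 31.2%, 17.1%, 0.416% and 7.58% of the class. Fibroblast-like cells held 11.2, 13, 6.77 and 2.72 CPM of Npr3, and in TAC-6w the ratio to sham was 0.243 (0.178 to 0.325). It was 0.289 and 0.438 within their 2 clusters. Make-up inside these clusters was not held fixed. With clustering at resolution 0.5, a fibroblast-like cluster led by Thbs4 and Cst6 had 662 sham and 1145 TAC-6w cells. Another, led by Lypd1 and Inmt, had 1226 and 101. The part of such shifts in the ratios was not tested. In the comparison of all fibroblast-like cells of TAC-6w with sham, 4.67% of all genes were at least 2-fold lower, among them Npr3 and Nppa. Nppa there was at 38.6 and 2.39 CPM, beside 113 and 5.76 CPM in B cell-like cells. Macrophage-like cells held 0.654, 0.814, 0 and 0 CPM.

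**Figure D5:**
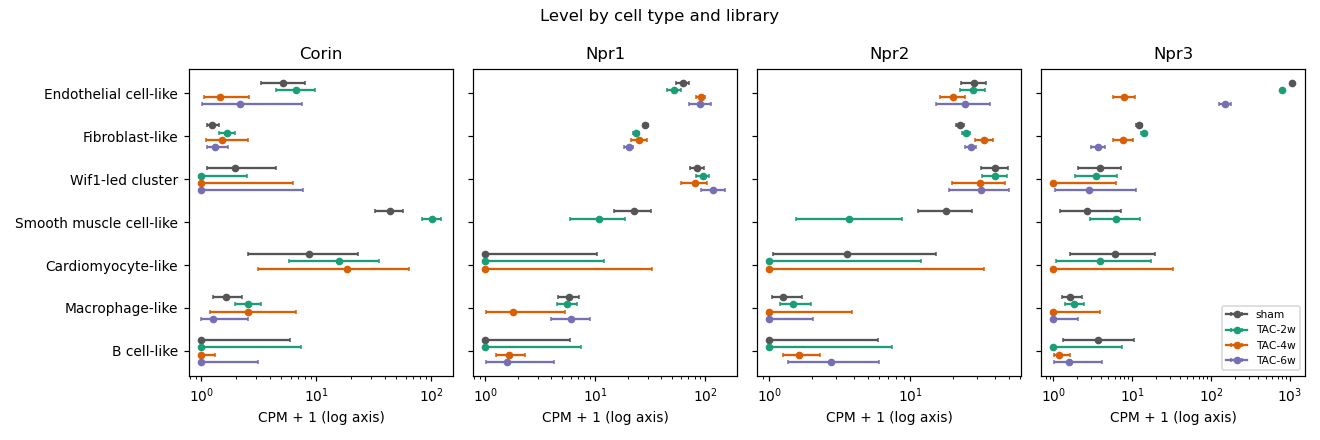
Level of Corin and of the receptors (CPM + 1, log axis) by cell type in each library with at least 20 such cells, with 95% Poisson intervals. Npr3 reached 1069 CPM in endothelial cell-like cells of sham, and Corin 100 CPM in smooth muscle cell-like cells of TAC-2w.

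Across 42 combinations of named cell type and library, the genes most like Npr1 were Mcc, Smad6, Zfp37, Pcdhga10 and Pcdhb14, with Pearson correlations from 0.910 to 0.937. For Npr2 they were Pcdhb14, Gulp1, Spin4, Tmem204 and Tmod2 (0.945 to 0.957). For Npr3 they were Prss35, Shroom2, Slco1a4, Hmcn1 and Adh1 (0.899 to 0.919), and for Corin Chmp4c, Akap6, Myocd, Fgf1 and Fam81a (0.895 to 0.941). These points share libraries and depth.

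Other genes of the pathway had leading types of their own. Nppc led in fibroblast-like cells at a mean of 1.37 CPM over the libraries. Pcsk6, which encodes a convertase that activates Corin, was at 377 CPM in fibroblast-like cells, and Mme, which encodes the peptide-cutting enzyme neprilysin, at 25.8 CPM there. Prkg1 was at 143 CPM and Pde3a, a phosphodiesterase, at 357 CPM in smooth muscle cell-like cells.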

How the data were processed

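The authors deposited UMI counts of each gene, not normalized, for spots over tissue and for barcodes called as cells. The file headers name cellranger 6.0.0 and spaceranger 1.2.0, while the submitters' processing notes name Cell Ranger 7.0.0, Space Ranger 1.3.1 and mm10. Nuclei are named in the labels and cells in the study's methods, and the word cells is used here. The filters of the methods kept cells of 200 to 6000 genes, of 500 to 30000 UMIs and of a mitochondrial share under 15%. The 3.2% with the highest Scrublet scores (scanpy 1.11.5, expected rate 7%) were removed from each library. Clustering used Seurat 5.3.0 under R 4.3.3 (3000 variable genes without 32 members and pathway genes, 30 components, resolution 0.25). A rule leaving clusters with few detected markers unnamed was added after the clusters were seen. Spots were not filtered. Batches are those of the labels, and the study's panel titles give the sham and TAC-2w libraries a shared run instead. Levels were computed with Python 3.11.15 and scipy 1.17.1. The 95% intervals are exact, by Poisson for sums, by the conditional binomial for ratios and by Clopper-Pearson for shares. UMIs per library ran from 28793316 to 86671674. The code for ratio intervals and correlations was tried on simulated Poisson counts. These had no spread between sections, so the trial says nothing about that spread.

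The members and lists were chosen with earlier results of these data known. Besides the members, the text names pathway, factor and stress genes from these lists and the 5 genes most like each member. Alternatives varied the total, averaging, filters, thinning, doublets, resolution and naming.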

Additional observations from a re-analysis of the deposited data

Results flagged for a closer look

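In all, 3 members had ratios to the sham section on opposite sides of 1 at different times, with intervals that excluded 1, and in no case was the difference between the times tested. The share of all genes that meets this rule was not computed, so the count does not set the members apart from other genes. Nppb was 0.559-fold of sham in TAC-2w, 5.46-fold in TAC-4w and 2.54-fold in TAC-6w. Corin was 1.09-fold in TAC-2w, 1.67-fold in TAC-4w and 0.687-fold in TAC-6w. Npr1 was 0.690-fold in TAC-2w and 1.18-fold in TAC-6w. Over a total without mitochondrial and ribosomal-RNA-like UMIs, Npr1 in TAC-6w was 1.03-fold (0.885 to 1.19), an interval that held 1, and Corin in TAC-2w was 0.932-fold. The median ratio of all genes tested in TAC-6w was 1.24. Each value rests on 1 section.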

How the results depend on the processing

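Of 76 alternative values, 48 were counted as the same as the reported value, 28 moved and 0 turned direction. The causes of the moves were not tested. The values were section ratios of Nppa and Nppb, their correlation over spots, and numbers of libraries led by a cell type. Such numbers have no direction, so they could not turn. The TAC-2w ratios of Nppa and Nppb could not be counted as turned either, since only ratios past 2-fold were eligible, though none of their values crossed 1. A step such as Corin from 2 to 3 counted as the same. Section ratios of other members were not among the 76. Some did turn over a total without mitochondrial and ribosomal-RNA-like features. Examples were Corin in TAC-2w (1.09 to 0.932) and Npr2 in TAC-4w (1.14 to 0.952). Over a total without mitochondrial and ribosomal-RNA-like features, the ratio to sham in TAC-2w, TAC-4w and TAC-6w was 1.09, 15.1 and 4.74 for Nppa and 0.479, 4.57 and 2.20 for Nppb. With the mean of the CPM of each spot, Nppa was 1.49 in TAC-2w and 6.80 in TAC-6w, and Nppb 0.624, 6.21 and 2.71. With the section labelled TAC-2w as the reference, chosen after seeing the data, TAC-4w and TAC-6w were 14.2 and 4.28 for Nppa and 9.75 and 4.54 for Nppb. Leaving out spots with much atrial RNA removed none, so its values equalled the main ones and were counted among the 48. The Spearman correlation of Nppa with Nppb on spots thinned to 5000 UMIs was 0.108 in sham, 0.159 in TAC-4w and 0.191 in TAC-6w, and 0.312 in TAC-6w without spots under 5000 UMIs. Summed over neighbours, also chosen after seeing the data, it was 0.420, 0.385, 0.404 and 0.507. Endothelial cell-like cells led Npr1 in 4 libraries, and in 1 once unnamed clusters were compared too. Fibroblast-like cells led Npr2 in 2, in 1 with unnamed clusters, and in 0 with each cell named by its own marker score. Smooth muscle cell-like cells led Corin in 2, and in 1 with cells thinned to 1000 UMIs. With a mitochondrial share under 5% the value was 0 because no cluster took that name, so the type was not ranked. No paired analysis was possible because each condition had 1 section and 1 library, so no replicate could be left out either. Receptor counts were low, which widens their intervals.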
